A study of Rattus norvegicus with 4 samples.

Results

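The genes that code for the tissue forms of 4 glycolytic enzymes were followed in the RNA-Seq libraries of 2 PC12 clones, 10 of the 25810 genes in the count files. They were chosen by gene symbol. The enolases are Eno1 (general form), Eno2 (neural form) and Eno3 (muscle form), the phosphoglycerate mutases Pgam1 (general) and Pgam2 (muscle), the aldolases Aldoa (general) and Aldoc (neural), and the phosphofructokinase subunits Pfkl (general, the liver form), Pfkp (neural, the platelet form) and Pfkm (muscle). All 10 genes had reads in all 4 libraries and passed the filter on low counts, as did 13726 genes in all.

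PC12 is a cell line from a rat pheochromocytoma, a tumor of the chromaffin cells of the adrenal medulla. Both groups are clones of this line, unmodified and untreated: wtPC12, with low levels of the repressor REST, and hrPC12, a spontaneous clone with high REST, with 2 libraries each. Because each level of REST is represented by 1 clone, effects of REST cannot be told apart from anything else that sets the clones apart, and the labels do not say whether the 2 libraries of a clone come from separate cultures. P values thus measure the spread between these libraries only, which may be technical. Reads on genes numbered from 20975027 to 27246502 per library. Rest itself had 43.0 and 132 normalized counts in wtPC12 and 964 and 915 in hrPC12, 10.7-fold more, with an adjusted p of 0.0115 by edgeR's quasi-likelihood test. Of the chromaffin and neural markers 8 of 10 were tested, and 7 of these fell in hrPC12 (adjusted p under 0.01 by edgeR), beside 7.14% of all tested genes. The exception, Ddc, had 24196 and 20841 normalized counts in wtPC12 and 26281 and 27995 in hrPC12. The summed level was 921551 to 1091911 normalized counts in wtPC12, most of it from Chgb. In hrPC12 it was 47288 to 52210, most of it from Ddc and Th.

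Glycolysis turns glucose into pyruvate through a fixed chain of steps, and vertebrates carry several genes for most of these steps. Phosphofructokinase commits sugar to the pathway, aldolase splits the resulting sugar, phosphoglycerate mutase moves a phosphate group, and enolase makes phosphoenolpyruvate. The forms catalyse the same reaction but differ in regulation and in the tissues that express them, and the replacement of Eno1 by Eno2 in neurons and by Eno3 in striated muscle is a classical mark of differentiation. The protein of Eno2 is known as neuron-specific enolase and is used as a marker of neurons and neuroendocrine tumors.

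Past an adjusted p of 0.01 (edgeR's quasi-likelihood test, Benjamini-Hochberg adjustment over all tested genes), 1 of the 10 genes rose in hrPC12, the muscle enolase Eno3, and 2 fell, the phosphofructokinases Pfkp and Pfkm. Among all tested genes 5.94% rose and 7.14% fell by the same rule. Past a log2 FC of 2 as well, edgeR called Eno3 higher and none of the 10 lower, beside 4.84% of all tested genes higher and 5.46% lower in edgeR. By DESeq2 too, none of the 10 was lower past that log2 FC. Of the 10 genes, 9 had an unadjusted p under 0.05, as had 6357 of all tested genes. The mean was lower in hrPC12 for 7 genes and higher for 3, with a median log2 FC of −0.91 beside 0.06 over all tested genes. The 4 values did not overlap between the clones for 9 of the 10 genes, and for 73.5% of all tested genes. Without wtPC12 replicate 2, edgeR called 0 of the 10 genes and 0 of 13590 genes in all (6798 at an unadjusted p under 0.05), so every edgeR call given here needs that library. In such bulk libraries, fewer cells of a type and less RNA per cell cannot be told apart.

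**Figure D1:**
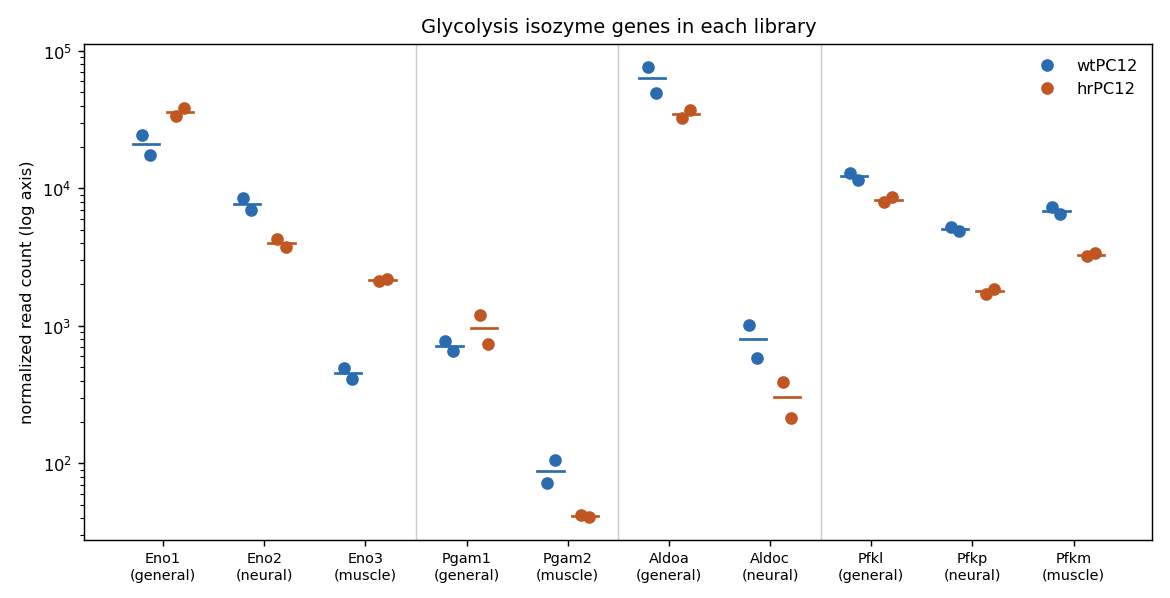
Normalized read counts (log axis) of the 10 isozyme genes in each of the 4 libraries (points), with the mean of each clone (bars), by enzyme family. The clones are apart in every gene except Pgam1, and Eno3 is the gene with the widest gap, from 453 to 2154. Heights of different genes are not comparable, since longer transcripts give more reads.

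The proximal promoters of Eno3, Pfkp and Pfkm, which passed the test, and of Eno2, the best known neural form, are shown to set the CpG-rich start of Eno2 beside the CpG-poor start of Eno3. Each line gives the 250 bases before the annotated start of transcription, from RefSeq on the build GRCr8, which is not the build of the counts. Capitals mark any match, on either strand, to TTCAGCACC or GGACAG, the half-sites of the REST element, or to ACGTG or GCGTG, the core of the hypoxia response element. CACGTG holds ACGTG on both strands.

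Eno2, chr4:159267221-159267470, minus strand: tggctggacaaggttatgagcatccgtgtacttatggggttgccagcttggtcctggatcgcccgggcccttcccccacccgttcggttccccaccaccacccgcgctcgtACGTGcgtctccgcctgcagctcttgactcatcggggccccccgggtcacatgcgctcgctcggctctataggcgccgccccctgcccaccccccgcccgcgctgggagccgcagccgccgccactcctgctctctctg

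Eno3, chr10:55868936-55869185, plus strand: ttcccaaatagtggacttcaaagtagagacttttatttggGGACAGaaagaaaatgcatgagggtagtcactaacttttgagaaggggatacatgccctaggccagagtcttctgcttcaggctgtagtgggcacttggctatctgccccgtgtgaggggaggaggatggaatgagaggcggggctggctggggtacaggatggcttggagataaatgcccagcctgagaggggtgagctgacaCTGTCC

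Pfkp, chr17:68639563-68639812, plus strand: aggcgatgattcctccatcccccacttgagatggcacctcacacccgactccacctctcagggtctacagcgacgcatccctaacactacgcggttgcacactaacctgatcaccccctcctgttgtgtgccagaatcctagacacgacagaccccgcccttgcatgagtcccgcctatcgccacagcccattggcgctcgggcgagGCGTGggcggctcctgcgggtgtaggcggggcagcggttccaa

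Pfkm, chr7:131113849-131114098, plus strand: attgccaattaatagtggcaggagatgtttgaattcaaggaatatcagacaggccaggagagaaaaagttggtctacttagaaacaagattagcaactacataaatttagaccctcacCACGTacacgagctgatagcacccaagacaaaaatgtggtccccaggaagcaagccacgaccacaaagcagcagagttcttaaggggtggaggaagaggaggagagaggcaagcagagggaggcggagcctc

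In the window of 300 bases, which adds 50 bases after the start, the promoter of Eno2 had a GC content of 70.7% and 31 CpG dinucleotides, and that of Eno3 had 51.3% and 2. The median over 33469 promoters was 51.7% and 7. The muscle forms had no more CpG than this median, with 2 in Eno3, 6 in Pgam2 and 7 in Pfkm. The neural forms had 31 in Eno2, 23 in Pfkp and 6 in Aldoc. All 10 genes were matched, with 13 promoters. None held TTCAGCACC, which 0.356% of all promoters hold. GGACAG was found in 2 of the 13, those of Eno3 and Pfkl, beside 21.7% of all promoters, ACGTG in 6 beside 19.3%, and GCGTG in 6 beside 29.7%. These matches describe the letters of the windows only, and sites farther from the start were not searched.

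Of the enolase genes Eno3 rose, while Eno2 had a lower and Eno1 a higher mean in hrPC12. Eno3, the form of striated muscle, had 492 and 413 normalized counts in the wtPC12 libraries and 2110 and 2199 in the hrPC12 libraries. Both hrPC12 values lay far above the wtPC12 values, and the libraries of a clone were close to each other. It rose 4.76-fold (log2 FC 2.25, standard error 0.21, adjusted p = 0.002 by edgeR). With each library left out in turn the log2 FC lay between 2.13 and 2.35, and the adjusted p by edgeR was 0.0168 without wtPC12 replicate 2 and 0.00437 or less without any other.

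Eno2, whose protein marks neurons, had 8557 and 6935 normalized counts in wtPC12 and 4277 and 3751 in hrPC12. The clones did not overlap, and the mean was 1.93-fold lower in hrPC12. The log2 FC of −0.95 (standard error 0.19) had an adjusted p of 0.0202 by edgeR, which is not past the threshold of 0.01, whereas DESeq2 gave 0.000881. The general form Eno1 had 24412 and 17552 normalized counts in wtPC12 and 33521 and 38606 in hrPC12. The difference of 0.78 on the log2 scale (standard error 0.25) had an adjusted p of 0.0645 by edgeR, and the wtPC12 libraries differed from each other by 0.48 on the log2 scale.

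The makeup of the enolase reads also differed between the clones, beyond the spread within each. Eno2 held 26.7% ± 1.6 (SD, n = 2) of them in wtPC12 and 9.57% ± 1.6 (SD, n = 2) in hrPC12. Eno3 went from 1.56% ± 0.13 (SD, n = 2) to 5.11% ± 0.25 (SD, n = 2), and Eno1 from 71.7% ± 1.7 (SD, n = 2) to 85.3% ± 1.9 (SD, n = 2). These are shares of reads, not of molecules, since no transcript lengths were used here. The enolase reads together came to 29180 ± 6054 (SD, n = 2) normalized counts in wtPC12 and 42231 ± 3287 (SD, n = 2) in hrPC12.

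**Figure D2:**
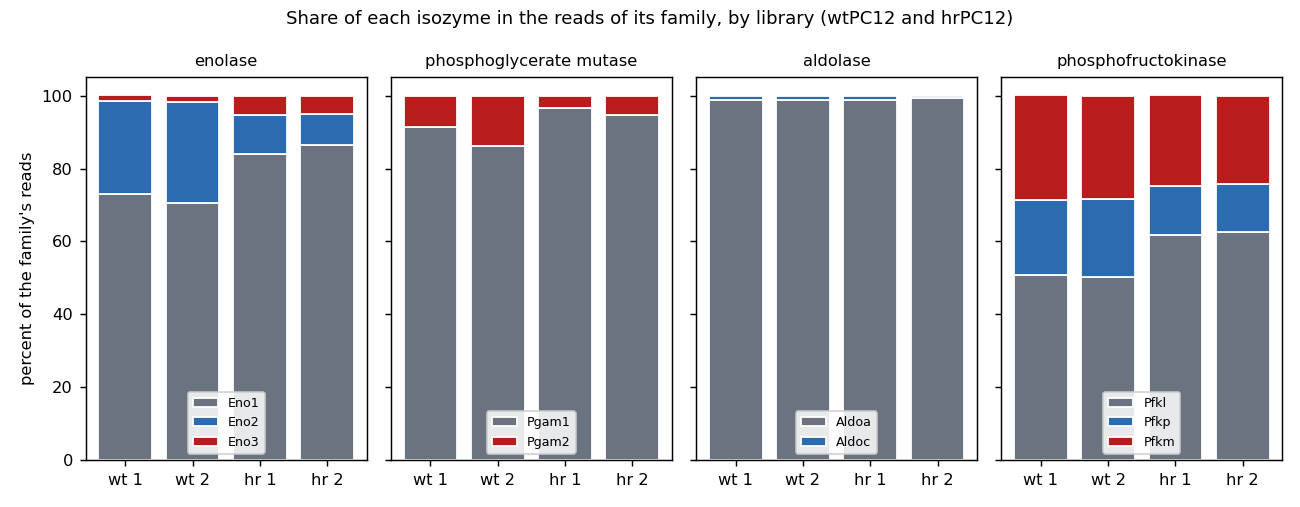
Share of each isozyme (percent, stacked bars) in the reads of its family in each of the 4 libraries, coloured by general (grey), neural (blue) and muscle (red) form. The neural share of the enolases and phosphofructokinases is smaller in both hrPC12 libraries, and the muscle share is larger only for the enolases.

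The ratio of 2 isozymes within a library is free of the scaling of that library. For each 100 reads of Eno1 there were 35.1 and 39.5 reads of Eno2 in wtPC12, and 12.8 and 9.72 in hrPC12. Eno3 had 2.02 and 2.35 reads per 100 of Eno1 in wtPC12, and 6.29 and 5.70 in hrPC12. The log2 ratio of Eno2 to Eno1 was lower by 1.74 in hrPC12 (−1.43 ± 0.12 and −3.17 ± 0.28, SD, n = 2), and that of Eno3 to Eno1 was higher by 1.46 (−5.52 ± 0.16 and −4.06 ± 0.10, SD, n = 2). In both ratios the nearest libraries of the clones were 1.46 and 1.28 apart, more than the largest gap within a clone (0.39 and 0.22). In all, 6 ratios were compared, and with 2 libraries per clone an exact 2-sided permutation test cannot give a p under 0.333. That was the p of 5 of them (0.4 after Benjamini-Hochberg adjustment), and Aldoc to Aldoa had 0.667 before and after adjustment by the same exact permutation test.

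**Figure D3:**
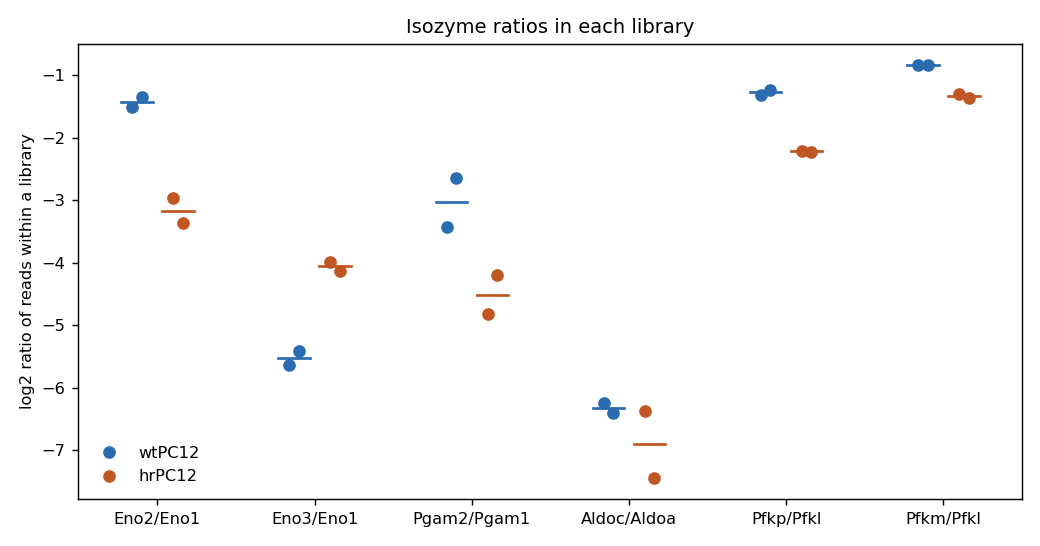
The log2 ratio of reads of a tissue form to those of the general form in each library (points), with the mean of each clone (bars). The clones are apart in 5 of the 6 ratios, and for Aldoc to Aldoa the hrPC12 libraries differ by 1.08, with hrPC12 replicate 1 between the wtPC12 libraries.

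All 3 phosphofructokinase genes had lower means in hrPC12, and the neural form had the largest fold. Pfkp had 5239 and 4899 normalized counts in wtPC12 and 1712 and 1850 in hrPC12. It fell 2.85-fold (log2 FC −1.51, standard error 0.16, adjusted p = 0.00332 by edgeR), and the clones were far apart relative to the spread within each. Its adjusted p by edgeR was 0.0189 without wtPC12 replicate 2 and at most 0.00848 without any other library. The muscle form Pfkm had 7281 and 6514 normalized counts in wtPC12 and 3200 and 3366 in hrPC12. It fell 2.10-fold (log2 FC −1.07, standard error 0.17, adjusted p = 0.00946 by edgeR), just past the threshold, and it missed the threshold whichever library was left out (adjusted p from 0.0218 to 0.0638 by edgeR). On GRCr8 Pfkm overlaps Senp1, which had a log2 FC of 0.18.

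The liver form Pfkl had 12956 and 11572 normalized counts in wtPC12 and 7905 and 8678 in hrPC12. The clones did not overlap, and its log2 FC of −0.56 (standard error 0.17) had an adjusted p of 0.0613 by edgeR. Pfkl held 50.6% ± 0.36 (SD, n = 2) of the family's reads in wtPC12 and 62.1% ± 0.55 (SD, n = 2) in hrPC12. Pfkp held 20.9% ± 0.53 and 13.3% ± 0.03, and Pfkm 28.5% ± 0.17 and 24.6% ± 0.52 (SD, n = 2 each). These ratios were the most even of all, with 40.4 and 42.3 reads of Pfkp per 100 of Pfkl in wtPC12 and 21.7 and 21.3 in hrPC12. The log2 ratio of Pfkp to Pfkl differed by −0.95 between the clones and that of Pfkm to Pfkl by −0.51, each beyond the largest gap within a clone (0.07 and 0.06).

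The general form held 98.8% ± 0.096 (SD, n = 2) of the aldolase reads in wtPC12 and 99.1% ± 0.44 (SD, n = 2) in hrPC12. Aldoa had 77059 and 49795 normalized counts in wtPC12 and 32475 and 37273 in hrPC12. It was 1.82-fold lower by the means (log2 FC −0.86, adjusted p = 0.0754 by edgeR). Both hrPC12 libraries lay below both wtPC12 libraries, which differed from each other by 0.63 on the log2 scale. Aldoc, the form of brain, had 1013 and 585 normalized counts in wtPC12 and 393 and 213 in hrPC12.

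The mean of Aldoc was 2.63-fold lower (log2 FC −1.40, standard error 0.43, adjusted p = 0.0621 by edgeR), and both pairs of libraries were uneven. The value was −1.90 without hrPC12 replicate 1 (adjusted p = 0.00341 by edgeR) and −0.99 without wtPC12 replicate 1. In hrPC12 Aldoc was higher in replicate 1 than in replicate 2 by 0.88 on the log2 scale. The median of its 6 flanking genes on GRCr8, among the tested genes that could be placed there, was also higher by 0.88. Around each of the other 9 genes this median lay between −0.17 and 0.00. A like gap was also seen in genes elsewhere: Pgam1 had 0.68, with −0.05 for its flanking genes, and Slc2a1 and Ldha had 0.83 each. In hrPC12, replicate 1 was above replicate 2 in 4 of the 10 isozyme genes and 4 of the 11 other glycolysis genes. That library also had 55.9% of its reads outside genes, beside 49.9% to 51.8% in the others. The source of these gaps, at Aldoc or elsewhere, was not tested. The log2 ratio of Aldoc to Aldoa differed by −0.58 between the clones, −1.12 without hrPC12 replicate 1 and −0.04 without hrPC12 replicate 2, so no difference in the makeup of the aldolases could be read from these libraries. Aldoc is also known as an astrocyte gene. Of 5 astrocyte and glia markers, 4 were found and 1 could be tested, which did not pass, and Gfap, Aqp4 and S100b had at most 11.6 normalized counts in any library.

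The phosphoglycerate mutases had few reads. Pgam1 had 777 and 655 normalized counts in wtPC12 and 1194 and 742 in hrPC12, the only overlap between the clones among the 10 genes. The log2 FC of Pgam1 was 0.43 (95% interval −0.33 to 1.20, adjusted p = 0.303 by edgeR), and 0.05 without hrPC12 replicate 1. RefSeq lists 13 copies named as pseudogenes of Pgam1, 31 of Eno1, 9 of Aldoa and none of the other 7 genes, and no row of the count files carries such a name. Reads that could not be placed at a single position were not counted on genes. They made up 5.85% to 9.13% of the reads accounted for in a library. The levels of Pgam1, Eno1 and Aldoa are thus uncertain, and so are the family shares and ratios that include them.

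Pgam2, the muscle form, had 72.1 and 105 normalized counts in wtPC12 and 42.3 and 40.5 in hrPC12, from 40 to 102 reads per library. Its fitted log2 FC was −1.10 (95% interval −2.05 to −0.14, adjusted p = 0.0792 by edgeR), with no overlap between the clones. There were 9.28 and 16.0 reads of Pgam2 per 100 of Pgam1 in wtPC12 and 3.55 and 5.46 in hrPC12. The change of this log2 ratio, −1.47, rests on libraries that were up to 0.79 apart within a clone.

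**Figure D4:**
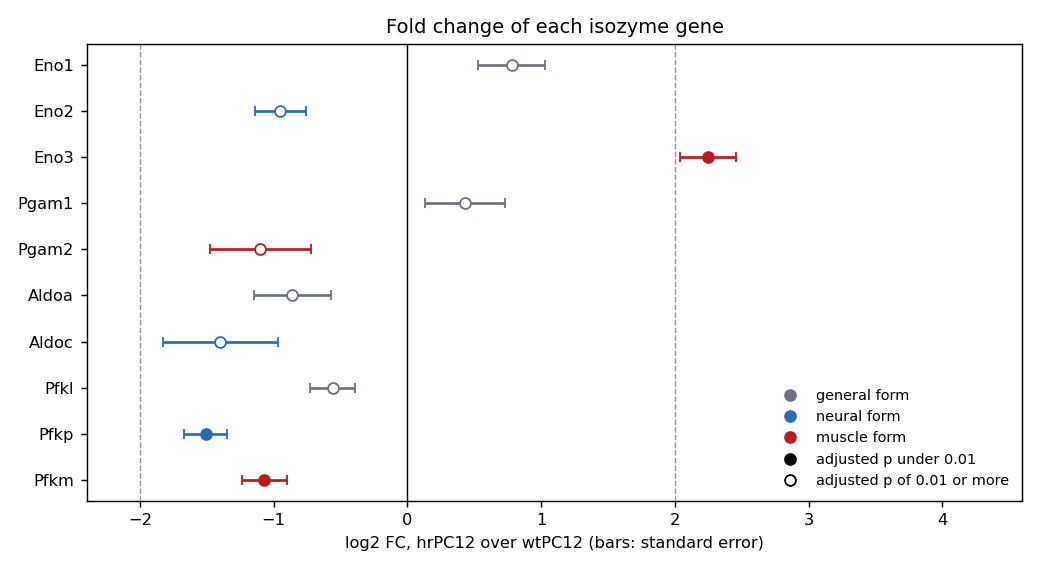
The log2 FC (hrPC12 over wtPC12) of each isozyme gene, with its standard error from edgeR as bars, coloured by tissue form, and filled where the adjusted p is under 0.01. Dashed lines mark a log2 FC of 2 in either direction, which Eno3 alone exceeds, with 2.25.

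By tissue form, all 3 neural forms had lower means in hrPC12, and 1 of the 3, Pfkp, passed the test in edgeR. All 3 passed in DESeq2, which called 1928 of the 13726 tested genes lower, beside 980 in edgeR. The adjusted p by DESeq2 was 0.000881 for Eno2, 0.00395 for Aldoc and 1.05e-08 for Pfkp. The muscle forms were divided, with Eno3 higher and Pfkm lower past the threshold, and Pgam2 with a lower mean that did not pass, in edgeR as in DESeq2. Of the 4 general forms none passed in edgeR or DESeq2, and 2 had higher means and 2 lower. Whether the forms differ as groups was not tested. Of 17 markers of contractile muscle 13 were found by symbol and tested, none of them at 0 in all libraries. In edgeR 8 rose, as Eno3 did, none fell and 5 did not pass, beside 5.94% of all tested genes higher and 7.14% lower. Among those 5, Des, the muscle intermediate filament, had 72.1 and 37.1 normalized counts in wtPC12 and 17.8 and 9.11 in hrPC12 (log2 FC −1.99), and Tnnt1, a troponin of slow muscle, had a log2 FC of −0.11. The summed level of the 13 was 213 to 318 normalized counts in wtPC12 and 8769 to 9174 in hrPC12, most of it from Myh2 and Myod1. Myh2, a myosin of fast muscle, had 75.6 and 55.6 against 3972 and 3886, and Myod1, a regulator of the muscle program, 11.6 and 11.3 against 3258 and 3576. The part of these genes in the result for Eno3 was not tested. The muscle creatine kinase Ckm had 22.1 and 20.6 normalized counts in wtPC12 and 41.5 and 55.7 in hrPC12 (log2 FC 1.18, adjusted p = 0.0796 by edgeR). On GRCr8 Eno3 overlaps Spag7, which had a log2 FC of −0.77, opposite in sign to that of Eno3.

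In the rest of the pathway, 11 of 16 listed genes of other steps were tested, with a median log2 FC of −0.02. Of these 2 rose and 1 fell, beside 5.94% and 7.14% of all tested genes. Tpi1, Pgk1, Pkm2, Gapdh and Gpi, enzymes of the main chain, did not pass. Gpi had 36037 and 22957 normalized counts in wtPC12 and 14156 and 15428 in hrPC12, without overlap. Its log2 FC was −1 (adjusted p = 0.0462 by edgeR). Tpi1, triosephosphate isomerase, had a log2 FC of −0.02, Pgk1, phosphoglycerate kinase, −0.39, Pkm2, pyruvate kinase, 0.11, and Gapdh, the dehydrogenase of the chain, 1 (adjusted p = 0.053 by edgeR). Hk3, a hexokinase typical of white blood cells, had 0 and 1 reads in wtPC12 and 122 and 110 in hrPC12, a ratio of 196 (95% exact interval 34.8 to 7760). The interval covers counting error only, and the adjusted p by edgeR was 0.00248. The 4 white blood cell markers found, Ptprc, Cd3e and Itgam among them, had 11.6 normalized counts or fewer in sum in every library. Gapdhs, the sperm form of its step, fell from 279 and 146 to 23.7 and 14.2 normalized counts (log2 FC −3.47, adjusted p = 0.00864 by edgeR). Hk2, a hexokinase found in muscle and in many tumors, had 1871 and 1972 against 1686 and 1671, a log2 FC of −0.19.

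Among 14 genes of the entry of glucose and the exit of its products, 12 were tested. Of these 2 rose and 1 fell, beside 5.94% and 7.14% of all tested genes. The glucose transporter of neurons, Slc2a3, fell from 5007 and 6366 to 1091 and 1043 normalized counts, 5.33-fold (log2 FC −2.41, standard error 0.20, adjusted p = 0.00145 by edgeR). The general transporter Slc2a1 rose from 1106 and 926 to 5547 and 3121, or 4.27-fold (log2 FC 2.09, standard error 0.33, adjusted p = 0.00963 by edgeR). Slc2a1 was uneven in hrPC12, and both of its values there lay above both in wtPC12. Ldhb, the heart form of lactate dehydrogenase, rose from 446 and 306 to 4977 and 5496, or 13.9-fold (log2 FC 3.80, standard error 0.26, adjusted p = 0.000923 by edgeR). Ldha, the muscle form, had a log2 FC of 0.24 (adjusted p = 0.614 by edgeR). Of the 4 tested regulators of phosphofructokinase, the Pfkfb genes, none passed in edgeR, where 3 had an unadjusted p under 0.05.

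**Figure D5:**
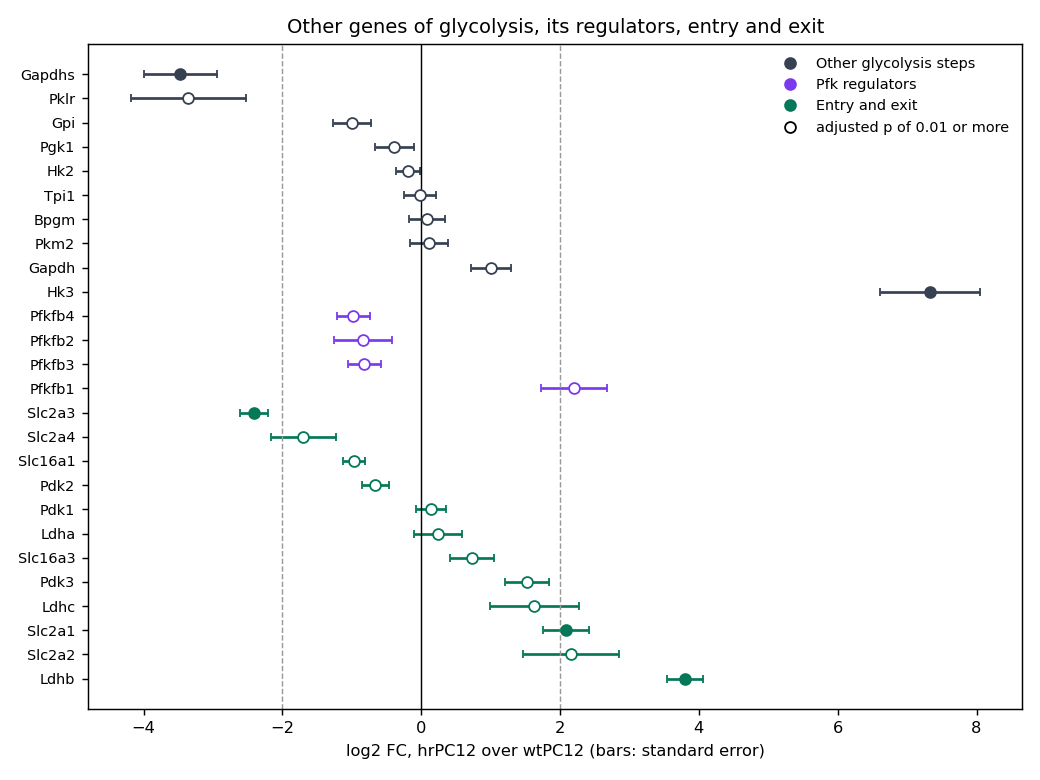
The log2 FC (hrPC12 over wtPC12) with its standard error for other tested genes of the pathway, coloured by list and filled where the adjusted p is under 0.01. Filled genes are Hk3, Ldhb and Slc2a1, which are higher, and Slc2a3 and Gapdhs, which are lower. The fitted value of Hk3 rests on at most 1 read per wtPC12 library and depends on the prior count.

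Several glycolytic genes are also induced by low oxygen. Among 15 hypoxia-responsive genes that code for no glycolytic enzyme, 14 were tested, with a median log2 FC of −0.46. Of these 2 rose and 3 fell, beside 5.94% and 7.14% of all tested genes. Vegfa, the vascular growth factor, had a log2 FC of −1.49, and Car9, a carbonic anhydrase, 2.45. Within wtPC12, replicate 1 was above replicate 2 in 9 of the 10 isozyme genes, beside 52.9% of all tested genes. It was above in 7 of the 11 other glycolysis genes, near that share, and in 10 of the 14 hypoxia-responsive genes. The gap between the wtPC12 libraries had a median of 0.25 on the log2 scale in the isozyme genes and 0.04 in all genes. Its median was 0.42 in the other glycolysis genes and 0.34 in the hypoxia-responsive genes, and its source was not tested.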

How the data were processed

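RNA-Seq was run on 2 libraries of each clone. The authors mapped the paired-end reads to the rat build rn4 and deposited raw counts of reads per gene, 1 file per library, without normalization. The submitters' processing notes name TopHat2 2.0.4, HTSeq 0.5.3 and DESeq 1.9.12. The strand setting is not given in the sources used here. A deposited table of the authors' own comparison (means, fold changes and p values) was not used.

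Counts were scaled with TMM factors (0.942 to 1.05) and are given as normalized counts, that is, reads at the mean effective library size. Genes with a mean of at least 5 and reads in both clones were tested with edgeR 4.0.16 (glmQLFit with the legacy option, glmQLFTest) in R 4.3.3, with Benjamini-Hochberg adjustment over all 13726. The common dispersion was 0.0745. Isozyme ratios were compared with an exact permutation test over libraries. On simulated counts of 13628 genes, edgeR found 200 of 200 changed genes (log2 change of 3) and called 2 unchanged ones. A count of 0 allows up to 3 reads, or 2.54 to 3.49 normalized counts, which covers counting error only.

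The isozyme genes and all lists were chosen with earlier results of these data known. Named are the 10 genes, Rest, and list members that passed or that describe a main step. The lists are other glycolysis steps, Pfk regulators, entry and exit, hypoxia-responsive genes, creatine kinases, contractile muscle markers, and markers of chromaffin and neural cells, skeletal muscle, glia, fibroblasts and white blood cells. Genes were matched by symbol, and 8956 of the tested genes could be placed on GRCr8. The alternatives were RLE factors, library totals alone, no filter, filterByExpr, DESeq2 1.42.0, the legacy option off, glmTreat, an adjusted p under 0.05, a prior count of 2 and each library left out in turn. Ratios per transcript length were not run. Some list genes are counted but not reported by name here.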

Additional observations from a re-analysis of the deposited data

How the results depend on the processing

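With each scaling, filter and edgeR option tried, Eno3, Pfkp and Pfkm stayed past the adjusted p of 0.01, except in glmTreat. No gene of the 10 changed direction in any setting. DESeq2 called 4 genes lower, adding Eno2 and Aldoc, and 1 higher. Of all 13726 tested genes it called 1928 lower and 1885 higher, or 27.8% in both directions together. Against a log2 FC of 2, glmTreat called 0 higher and 0 lower (DE higher 0), beside 4.91% of all tested genes called. Of the 10 genes, 1 had an unadjusted p under 0.05 by glmTreat. With libraries left out, higher calls were 0 to 1 (past a log2 FC of 2, 0 to 1) and lower calls 0 to 2. The zeros come from the fit without wtPC12 replicate 2, in which edgeR called no gene at all, so they say nothing about single genes. In that fit the log2 FC was 2.13 for Eno3, −1.56 for Pfkp and −1.15 for Pfkm. In these fits the lone library is assumed to vary like the other clone.

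Among the other glycolysis genes, lower calls were 2 with every gene tested, 3 with DESeq2, 3 at an adjusted p under 0.05 and 0 with glmTreat, where 4 had an unadjusted p under 0.05. With libraries left out, they ranged from 0 to 2, and higher calls from 0 to 2. The cause was not tested. No paired analysis was possible because the labels give the clones no shared replicate numbers. Ratios per transcript length were not run, as no length table was used.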

Other observations

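Among the creatine kinases, another family with tissue forms, 3 genes were tested and 1 fell, beside 7.14% of all tested genes. The mitochondrial form Ckmt1 had 3097 and 2330 normalized counts in wtPC12 and 3.39 and 14.2 in hrPC12 (log2 FC −8.30, standard error 0.62, adjusted p = 0.00115 by edgeR). The brain form Ckb had 7838 and 5645 against 7692 and 8909, a log2 FC of 0.30 that did not pass. Of 8 skeletal muscle markers, which are all among the 17 muscle markers above, 6 were tested and 5 rose, beside 5.94% of all tested genes. Of 5 fibroblast markers 4 were tested, and 2 rose, Col1a1 and Col1a2, beside the same 5.94% of all tested genes. The other 2 had lower means with no overlap and did not pass in edgeR, Dcn with a log2 FC of −3.10 (adjusted p = 0.0182) and Thy1 with −0.99 (adjusted p = 0.0137).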
